A study of Mus musculus with 6 samples.

Results

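Transglutaminases, peptidylarginine deiminases and the proteins they modify were followed in the ear skin of mice. The 10 genes were Tgm1, Tgm3, Tgm5, Padi1, Padi2, Padi3, Padi4, Lor, Ivl and Casp14. They were found by gene name among the 39429 non-control probes of the arrays, where 14 probes of 60 bases read them, and all 10 were among the 23675 genes tested. Total RNA was measured on 6 one-colour arrays, with 1 array per mouse. The 3 knockout (KO) mice lacked NC16A and the 3 wild-type (WT) mice carried it, per the labels. NC16A is a segment of BP180 (collagen XVII), the transmembrane collagen that ties basal keratinocytes to the basement membrane. Age and sex were matched according to the study's design text, which gives neither, and no source used here gives the strain or the extent of the deletion. The labels number the mice KO 1, 2 and 7 and WT 1, 2 and 3.

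The cornified envelope is the protein shell that replaces the plasma membrane of a dying keratinocyte. Transglutaminases build it by joining glutamine to lysine side chains of precursors such as involucrin and loricrin. Deiminases turn arginine into citrulline in keratins, filaggrin and trichohyalin, which loosens filaggrin for breakdown in the epidermis and prepares trichohyalin for crosslinking in the hair follicle. Caspase-14 acts on filaggrin in the uppermost layers.

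The 75th percentile of the processed signal was 4068 to 4712 intensity units on the KO arrays and 5569 to 7056 on the WT arrays, so each value below is log2 of the signal over its own array's 75th percentile. Between 72.6% and 78.2% of spots per array were well above background and no spot was saturated. The arrays of KO 1 and the 3 WT mice lay on slide 1, and those of KO 2 and KO 7 on slide 2. Slide 2 held no WT array, so differences within slide 1 set KO 1 alone against the WT arrays. A fit with slide as a block gives that same difference, with KO 2 and KO 7 adding only to the estimate of spread. All 11 basal keratinocyte and 12 of 13 cartilage markers were measured, none at background throughout a group. Such bulk values cannot separate fewer cells of a type from less RNA per cell. Differences are KO minus WT with the standard error (SE) of the limma fit over all genes, and a gene passed at a Benjamini-Hochberg adjusted p under 0.05.

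Of the 10 genes, 2 rose in KO ear skin, both of them deiminase genes, and none fell. Padi3 was 19.7-fold and Padi1 2.50-fold higher. The share of all tested genes that rose was 2.0%, and the share that fell was 0.422%, together 2.42%. These were 473 and 100 genes, and without scaling between arrays 716 rose and 5923 fell, with a median difference of all genes of -0.44 in place of 0.045. The transglutaminase genes, the precursor genes Lor and Ivl, Casp14, Padi2 and Padi4 did not pass. At an unadjusted p under 0.05, 7 of the 10 were higher and 0 lower in KO, against 26.6% of all genes in either direction. All KO arrays lay above all WT arrays for 7 of the 10, where 20.7% of all genes did, and below them for 0, where 14.6% did. Both counts take Tgm3 and Padi4 on their brighter probes, and on the other probe of each gene the groups overlapped. On those other probes the unadjusted limma p was 0.31 for Tgm3 and 0.039 for Padi4. Before scaling, all KO signals lay above all WT signals for 2 of the 10 and below them for 2, and the groups overlapped for 6. The shares of 20.7% and 14.6% are of scaled values. No share of all genes was computed for the unscaled counts, so nothing is concluded from them. After scaling, the median difference of the 10 genes was 0.56, against 0.045 for all genes, and within slide 1 it was 0.31, against -0.012 for all genes.

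**Figure D1:**
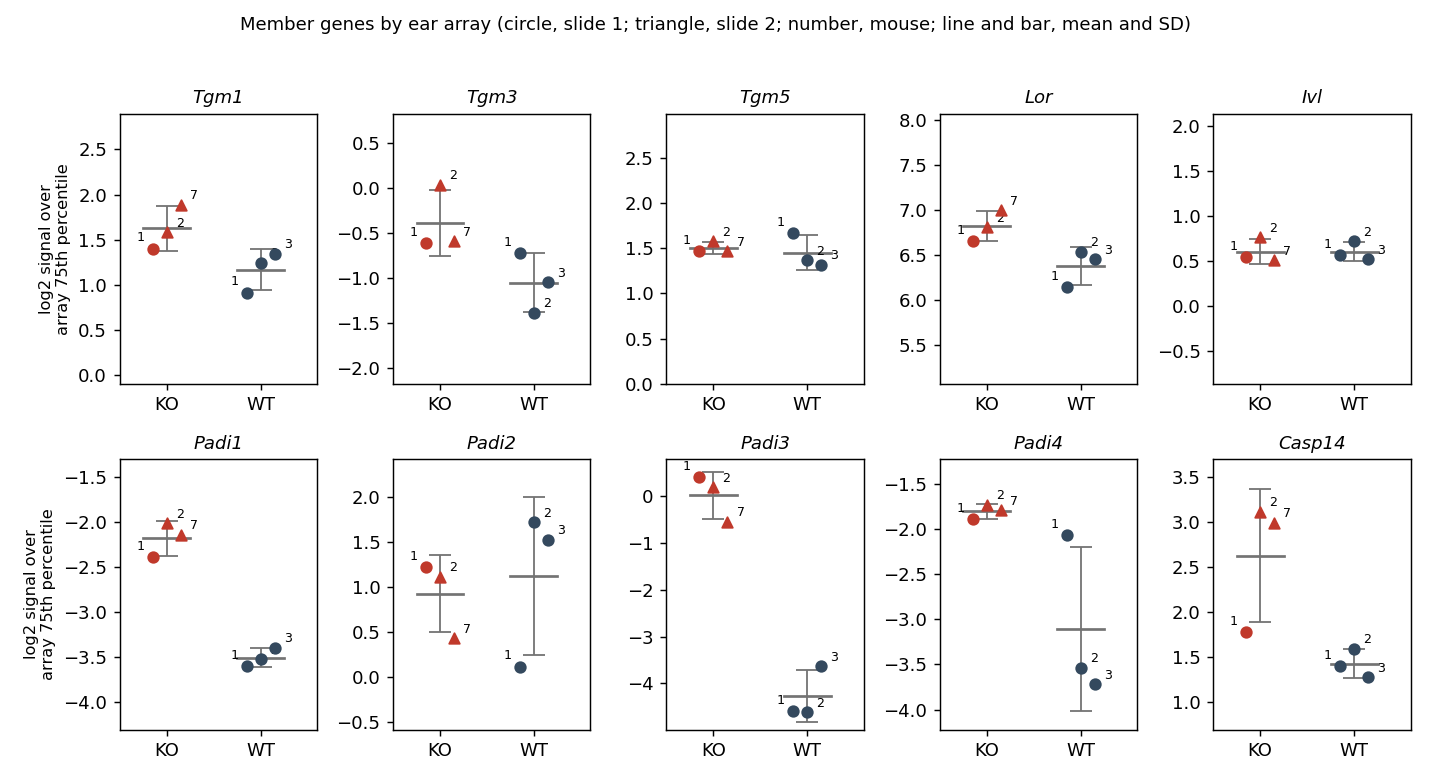
Log2 signal over the array's 75th percentile (y axis, scaled separately per gene) of the 10 genes, with KO mice left of WT mice, circles for slide 1, triangles for slide 2 and the mouse number beside each point; lines and bars are the mean and SD of 3 mice. The groups lie far apart for Padi3 and Padi1, Casp14 is high on the 2 triangles only, and Ivl and Tgm5 overlap.

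**Figure D2:**
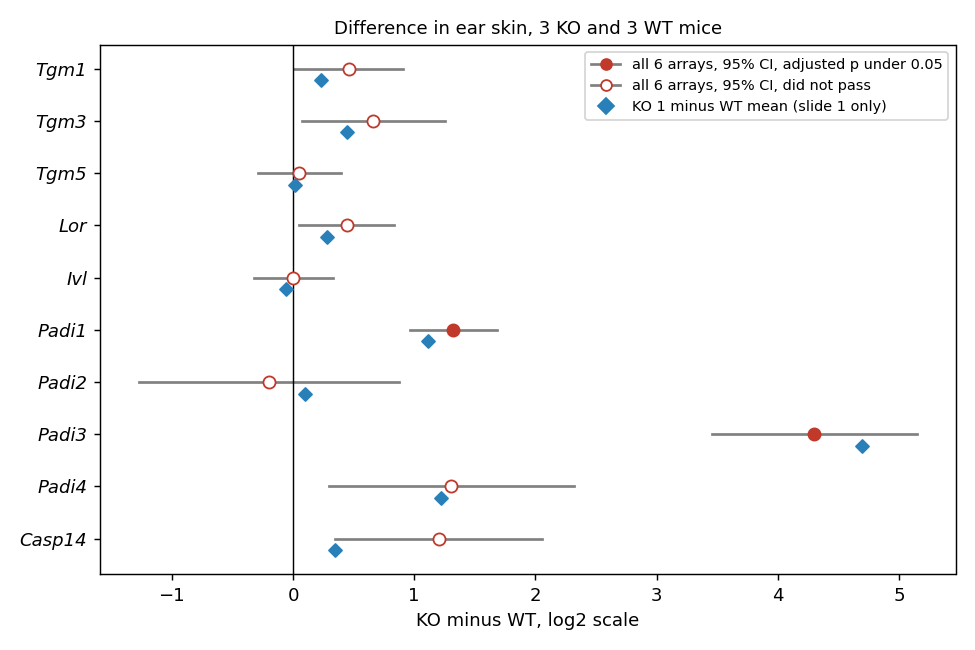
KO minus WT on the log2 scale (x axis) for each gene (y axis), with the 95% confidence interval of the fit, filled where adjusted p was under 0.05, and a diamond for KO 1 minus the WT mean within slide 1. Padi1 and Padi3 are the filled points, and the diamond of Casp14, at 0.35, lies far left of its fitted value of 1.20.

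Padi3 encodes the deiminase of the inner root sheath and hair shaft medulla, where trichohyalin is its main substrate. Its one probe, A_51_P450549, lies on chr4:140341364-140341423 of mm9 on the minus strand. The Padi3 level was 0.42, 0.19 and -0.54 in KO 1, 2 and 7, against -4.58, -4.61 and -3.63 in WT 1, 2 and 3. All KO arrays lay far above all WT arrays, and KO 7 was the lowest of the KO mice. The difference was 4.30 ± 0.35 (SE, n = 3 each; 95% confidence interval 3.46 to 5.14; adjusted p = 0.0032). It exceeded the difference of 99.7% of all genes. Within slide 1 the difference was 4.69. Padi3 also passed with slide as a block (adjusted p = 0.025), a fit whose difference rests on KO 1 alone among the KO mice. In that fit the share of all genes called higher was 0.667% and lower 0.0380%. Padi3 passed without each of the 6 mice in turn, with adjusted p between 0.0036 and 0.022. The fit without KO 1 sets slide 2 against slide 1, so slide and genotype cannot be told apart in it. Before scaling, the Padi3 signal was 6287, 5067 and 2804 intensity units in KO 1, 2 and 7, against 294, 228 and 473 in WT 1, 2 and 3.

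The profiles over the 6 arrays most like that of Padi3 were then sought. Among 15750 named genes above background on all arrays, the smallest root mean square difference of centred log2 level was that of Krt25 (0.074), followed by Krt27 (0.14) and Krtap4-1 (0.19). Krt25 and Krt27 encode keratins of the inner root sheath, and Krtap4-1 a keratin-associated protein of the hair shaft. Krt25 was at 3.26, 3.06 and 2.34 in KO 1, 2 and 7, against -1.69, -1.71 and -0.57 in WT 1, 2 and 3. As with Padi3, KO 7 was the lowest KO mouse and WT 3 the highest WT mouse, which follows from choosing Krt25 by its likeness on these same arrays. Krt25 differed by 4.58 within slide 1.

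Tchh, the gene of trichohyalin, differed by 3.55 ± 0.34 (adjusted p = 0.0056), and by 4.05 within slide 1. Its level was 4.64, 4.36 and 3.43 in KO 1, 2 and 7, against 0.34, 0.46 and 0.99 in WT 1, 2 and 3. The order of the mice was thus the same in the KO group as for Padi3, and WT 3 was again the highest WT mouse. Of 22 measured hair follicle markers, 16 rose and 0 fell, 19 were higher in KO, and the list median was 3.11, or 3.32 within slide 1. With slide as a block, 11 passed. Krt82, of the hair cuticle, differed by 3.20 ± 0.20 (adjusted p = 0.0019; 3.08 within slide 1) and Krt35, of the hair shaft, by 3.09 ± 0.22 (adjusted p = 0.0019; 2.97 within slide 1). The summed level of the list was 99.6 to 161 times the 75th percentile on KO arrays and 37.6 to 46.0 times on WT arrays, with no marker at background throughout either group. The part of these follicle transcripts in the Padi3 difference was not tested.

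**Figure D3:**
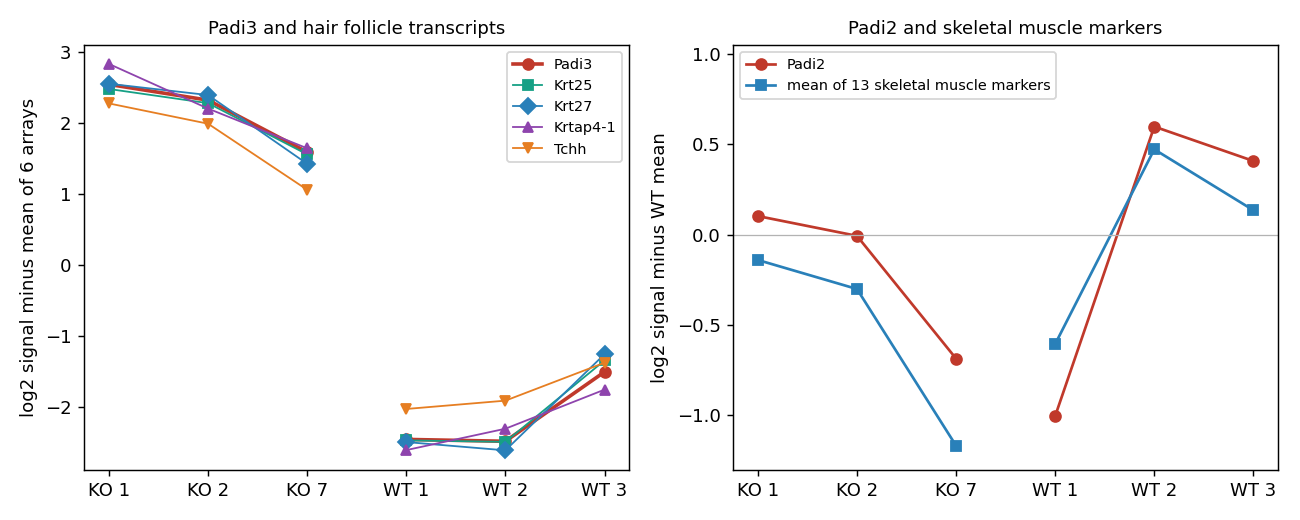
Left, log2 signal of Padi3, Krt25, Krt27, Krtap4-1 and Tchh minus each gene's mean over the 6 arrays (y axis) by mouse (x axis). The curves of Padi3 and Krt25, a gene chosen for its likeness to Padi3, nearly coincide, with KO 7 lowest in KO and WT 3 highest in WT. Right, Padi2 and the mean of 13 skeletal muscle markers, each minus its WT mean; both are low in KO 7 and WT 1.

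Padi1 encodes the main deiminase of the epidermis together with Padi3, and acts on keratins of the living and cornified layers. Its probe, A_51_P439403, lies on chr4:140369162-140369221 of mm9 on the minus strand. The Padi1 level was -2.39, -2.01 and -2.14 in KO 1, 2 and 7, against -3.60, -3.52 and -3.39 in WT 1, 2 and 3. The groups were separate, and the mice within each lay close together. The difference was 1.32 ± 0.15 (95% confidence interval 0.97 to 1.68; adjusted p = 0.0089), and 1.11 within slide 1. Padi1 did not pass with slide as a block (adjusted p = 0.11) or without WT 2 (adjusted p = 0.056). In intensity units it was 898, 1100 and 924 in KO 1, 2 and 7, against 583, 486 and 559 in WT 1, 2 and 3. Before scaling, all KO signals exceeded all WT signals for Padi1 and Padi3 alone among the 10 genes, all were lower for Ivl and Tgm5, and the groups overlapped for the other 6. The share of all genes separated in this way before scaling was not computed.

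The genes whose profile was most like that of Padi1 were Fcmr, the gene of an IgM Fc receptor (root mean square difference 0.088), Il18r1, an interleukin-18 receptor gene (0.10), and Slc5a10, a sugar transporter gene (0.11). None of these 3 belongs to the hair follicle markers listed. The measure depends on the size of the difference, which had a median of 3.11 over those markers, against 1.32 for Padi1. No conclusion is drawn from their absence. The difference of Padi3 was larger than that of Padi1 by 2.98 on the log2 scale, and by 3.58 within slide 1. The per-array log ratios of the 2 probes did not overlap between KO and WT (exact two-sided permutation p = 0.10, the smallest that 3 against 3 arrays can give; adjusted p = 0.15 over 3 gene pairs).

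The deiminase genes stand side by side on chromosome 4, in the order Padi6, Padi4, Padi3, Padi1 and Padi2 among protein-coding genes of RefSeq. The 250 bases before the start of both genes that rose are shown because these are the 2 of the 10 genes that passed. They come from RefSeq (GRCm38.p6), lie on the minus strand at chr4:140810649-140810898 and chr4:140845779-140846028, and are written 5′ to 3′ with matches to 4 motifs in capitals.
Padi3: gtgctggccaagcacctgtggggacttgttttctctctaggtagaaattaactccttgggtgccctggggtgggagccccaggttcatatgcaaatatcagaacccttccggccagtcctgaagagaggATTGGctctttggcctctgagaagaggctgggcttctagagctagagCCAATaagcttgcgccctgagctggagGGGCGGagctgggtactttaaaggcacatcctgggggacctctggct
Padi1: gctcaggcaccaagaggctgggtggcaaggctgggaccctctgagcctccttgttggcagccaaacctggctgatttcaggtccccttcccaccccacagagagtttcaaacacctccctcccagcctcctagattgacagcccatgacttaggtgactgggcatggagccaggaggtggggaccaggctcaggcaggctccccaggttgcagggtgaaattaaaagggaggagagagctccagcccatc
The motifs searched on both strands were the CCAAT box (CCAAT), the GC box (GGGCGG), the AP-1 motif (TGANTCA) and the TATA box (TATAAA). The Padi3 window held 2 CCAAT boxes, which begin 121 and 74 bases before the start, and 1 GC box, 47 bases before it. The Padi1 window held none of the 4. Of 32851 RefSeq promoters, 33.8% held a CCAAT box in this window, 32.7% a GC box, 6.75% an AP-1 motif and 12.4% a TATA box. All 10 genes had an entry, Tgm1 with 2 starts, and 5 held a CCAAT box, 3 a GC box, 3 an AP-1 motif (Ivl, Lor and Padi4) and 4 a TATA box (Ivl, Lor, Padi4 and Tgm3). The match in letters describes these windows and shows no binding.

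Padi4 encodes the deiminase of neutrophils and other leukocytes, which citrullinates histones. Its brighter probe, A_52_P514061 (chr4:140301675-140301734, mm9, minus strand), gave -1.89, -1.73 and -1.79 in KO 1, 2 and 7, against -2.06, -3.54 and -3.72 in WT 1, 2 and 3. The KO mice lay close together, and WT 1 stood near them and far from the other 2 WT mice. The difference of 1.30 ± 0.42 did not pass (95% confidence interval 0.29 to 2.31; adjusted p = 0.13), and was 1.22 within slide 1. Without WT 1 it was 1.83 and passed (adjusted p = 0.011).

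The second Padi4 probe, A_55_P2073169, is shown because it reads another stretch of the transcript (chr4:140304002-140304061, mm9, minus strand).
Padi4 probe: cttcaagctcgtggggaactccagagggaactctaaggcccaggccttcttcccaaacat
It was dim, with -5.77, -6.26 and -6.37 in KO 1, 2 and 7, against -6.35, -7.03 and -6.88 in WT 1, 2 and 3. The difference was smaller, at 0.62 ± 0.24 (adjusted p = 0.17), with 0.99 within slide 1 and 0.14 before scaling. WT 1 was again the highest WT mouse, and KO 7 lay below it, so the groups overlapped on this probe. Of 14 measured neutrophil markers, 3 rose (S100a8, S100a9 and Cxcr2, the last of them named after its values were seen) and 13 were higher in KO. The median difference of the 14 was 1.28, or 1.02 within slide 1. Their summed level was 73.7 to 125 in KO and 11.7 to 13.8 in WT. The brightest markers weigh most in this sum, led on KO arrays by S100a9 (mean level 5.82) and S100a8 (3.92). The difference of S100a9 was 4.68 ± 0.29 (adjusted p = 0.0019; 4.35 within slide 1). That of S100a8 reached 4.71 ± 0.35 (adjusted p = 0.0023; 4.68 within slide 1), and stressed keratinocytes make both as well. With slide as a block these 2 passed, whereas Cxcr2 did not (adjusted p = 0.098). Ly6g, a defining neutrophil marker, chosen after its values were seen, differed by -0.35 (adjusted p = 0.19; -0.50 within slide 1). The part of neutrophils in the Padi4 values was not tested.

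Padi2 encodes the most widely expressed deiminase, found in skeletal muscle and other tissues besides skin. The level of Padi2 was 1.22, 1.11 and 0.43 in KO 1, 2 and 7, against 0.11, 1.71 and 1.52 in WT 1, 2 and 3. The groups overlapped, with WT 1 the lowest of the 6 arrays and the other WT mice the highest. The difference was -0.20 ± 0.45 (95% confidence interval -1.27 to 0.88; adjusted p = 0.79), 0.10 within slide 1 and -0.70 without WT 1 (adjusted p = 0.24). Its other probe shares 55 of 60 bases with the first and differed by -0.23, so the 2 are no independent readings. The summed level of 13 skeletal muscle markers was 358, 339 and 230 in KO 1, 2 and 7, against 259, 472 and 394 in WT 1, 2 and 3. In both measures WT 2, WT 3, KO 1 and KO 2 held the first 4 places in that order, and KO 7 and WT 1 the last 2. Of the 13 muscle markers 0 passed in limma. At an unadjusted p under 0.05 there were 3 lower and 0 higher, against 26.6% of all genes in either direction. The median difference of these markers was -0.65, or -0.14 within slide 1, with 11 lower and 2 higher in KO. The part of muscle tissue in the Padi2 values was not tested. Padi6, which encodes the egg and embryo deiminase, was above background on 1 KO and 1 WT array and was not tested.

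Tgm1 encodes the membrane-bound transglutaminase that starts the envelope and attaches lipids to it. Its level was 1.40, 1.58 and 1.89 in KO 1, 2 and 7, against 0.91, 1.24 and 1.34 in WT 1, 2 and 3. All KO arrays were above all WT arrays by a small margin. The difference of 0.46 ± 0.19 did not pass (95% confidence interval 0.01 to 0.90; adjusted p = 0.18) and was 0.23 within slide 1. Before scaling the groups overlapped, with 12430, 13268 and 15042 intensity units in KO 1, 2 and 7, against 13270, 13177 and 14883 in WT 1, 2 and 3. The probe, A_52_P627816, lies on chr14:56319032-56319091 of mm9 on the minus strand.

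Tgm3 encodes the soluble transglutaminase of the hair follicle and upper epidermis, which crosslinks trichohyalin and small envelope proteins. It was read by 2 probes whose starts lie 1966 bases apart on chromosome 2, on the plus strand of mm9. The brighter one, A_51_P495560 on chr2:129874069-129874128, is shown since the choice of probe decides the sign.
Tgm3 probe: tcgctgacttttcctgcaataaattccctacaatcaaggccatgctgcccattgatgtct
It gave -0.61, 0.03 and -0.59 in KO 1, 2 and 7, against -0.73, -1.39 and -1.05 in WT 1, 2 and 3. The KO arrays were all higher, although KO 1 and KO 7 lay close to WT 1. The difference was 0.66 ± 0.25 (95% confidence interval 0.07 to 1.26; adjusted p = 0.16), and 0.44 within slide 1. The probe nearer the 3′ end, A_55_P2163493, gave -1.68, -1.22 and -1.63 in KO 1, 2 and 7, against -0.99, -1.38 and -1.50 in WT 1, 2 and 3. There the groups overlapped and the difference was -0.22 ± 0.20 (adjusted p = 0.49), with -0.39 within slide 1. Neither reading passed, and no direction is given for Tgm3. On the brighter probe alone, the Tgm3 level relative to Tgm1 differed by 0.21 between KO and WT, with overlapping groups (exact two-sided permutation p = 0.60).

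**Figure D4:**
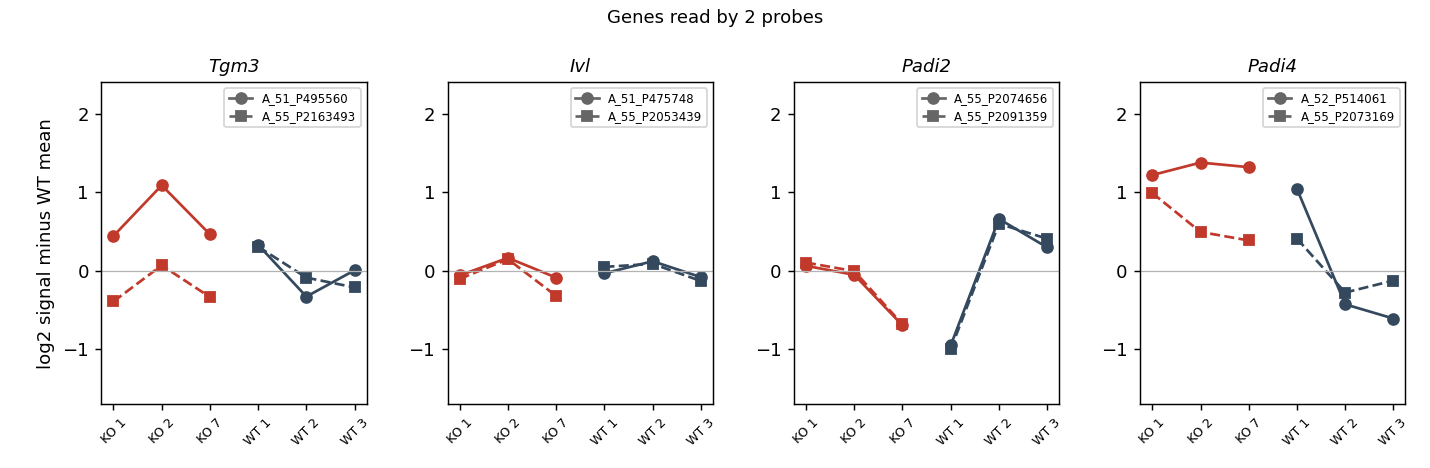
Log2 signal minus the WT mean of the same probe (y axis) by mouse (x axis) for the 4 genes read by 2 probes, with KO mice in red, WT mice in dark grey, and a solid and a dashed line for the probes. The Tgm3 probes part on all 3 KO arrays, whereas those of Ivl and Padi2 run together and those of Padi4 share the high WT 1.

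Tgm5 encodes a transglutaminase of the upper epidermis, and its loss in humans causes peeling of the skin. The level of Tgm5 was 1.47, 1.58 and 1.47 in KO 1, 2 and 7, against 1.67, 1.37 and 1.32 in WT 1, 2 and 3. The KO arrays lay within the range of the WT arrays. The difference was 0.05 ± 0.14 (95% confidence interval -0.29 to 0.40; adjusted p = 0.83) and 0.01 within slide 1. Of 5 other transglutaminase genes measured (Tgm2, Tgm4, Tgm6, Tgm7 and F13a1), 0 passed in limma and 1 was higher and 0 lower at an unadjusted p under 0.05. Tgm4, known for its role in the prostate, differed by 0.68 ± 0.15 (adjusted p = 0.075; 0.66 within slide 1) and Tgm6, the neighbour family member of Tgm3, by 0.84 ± 0.36 (adjusted p = 0.19; 1.11 within slide 1). Both were dim, with mean levels of -6.02 for Tgm4 and -6.09 for Tgm6 in KO, and -6.69 and -6.94 in WT.

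Ivl encodes involucrin, an early glutamine-rich scaffold of the envelope. Its level showed the smallest difference of the 10 genes, 0.0037 ± 0.14 (95% confidence interval -0.32 to 0.33; adjusted p = 0.99). The 2 probes, A_51_P475748 (chr3:92375367-92375426) and A_55_P2053439 (chr3:92375498-92375557), share no bases and are shown as the 2 independent readings of this result, both on the minus strand of mm9.
Ivl probe 1: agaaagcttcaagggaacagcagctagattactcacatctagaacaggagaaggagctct
Ivl probe 2: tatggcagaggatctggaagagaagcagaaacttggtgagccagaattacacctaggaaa
The first gave 0.54, 0.76 and 0.51 in KO 1, 2 and 7, against 0.56, 0.72 and 0.51 in WT 1, 2 and 3. The second gave -0.03, 0.22 and -0.25 in KO 1, 2 and 7, against 0.12, 0.16 and -0.06 in WT 1, 2 and 3, a difference of -0.09 ± 0.16 (adjusted p = 0.72). Both sets of KO and WT values overlapped. Within slide 1 the differences were -0.06 and -0.11.

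Lor encodes loricrin, the most abundant protein of the mature envelope. Its probe, A_51_P495269 (chr3:91884206-91884265, mm9, minus strand), gave 6.65, 6.81 and 6.99 in KO 1, 2 and 7, against 6.14, 6.54 and 6.45 in WT 1, 2 and 3. All KO arrays were higher, and the difference of 0.44 ± 0.16 did not pass (95% confidence interval 0.05 to 0.83; adjusted p = 0.16). Within slide 1 it was 0.28. The probe was very bright, at 63.3% to 69.4% of the scanner's saturation value. Its unscaled signal was 473624, 496127 and 517970 in KO 1, 2 and 7, against 498052, 516642 and 512603 in WT 1, 2 and 3. Unscaled values overlapped and differed by -0.04 on the log2 scale, whereas scaling by the array median gave 0.33. The sign of the Lor difference thus depends on whether the arrays are scaled. Quantile normalization gave -0.01, but it gives probes of equal rank the same value on every array. That leaves little room for a difference in a probe this bright. Relative to Lor, Ivl shifted by -0.44 between KO and WT, and by -0.34 within slide 1 (exact two-sided permutation p = 0.10, the smallest possible; adjusted p = 0.15). The shift was 0.0099 after quantile normalization, where the same limit on Lor applies.

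Casp14 encodes caspase-14, a protease of cornifying keratinocytes. The level of Casp14 was 1.77, 3.11 and 2.99 in KO 1, 2 and 7, against 1.40, 1.59 and 1.28 in WT 1, 2 and 3. KO 2 and KO 7 were far above the WT mice and KO 1 only slightly. The difference of 1.20 ± 0.36 did not pass (95% confidence interval 0.35 to 2.05; adjusted p = 0.11). Slide 1 alone gave 0.35. Without KO 1 it was 1.63 and passed (adjusted p = 0.014). That fit sets slide 2 against slide 1, so slide and genotype cannot be told apart in it. The probe, A_55_P2064063, lies on chr10:78174761-78174820 of mm9 on the minus strand.

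Further genes of these pathways were read beside the shares of all genes in either direction. These were 2.42% that passed and 26.6% at an unadjusted p under 0.05. Of 22 other envelope substrates and keratins measured, Tchh rose and 0 fell, with a median of 0.39 against 0.045 over all genes. Within slide 1 that median was 0.10, against -0.012 over all genes, and over all 6 arrays at an unadjusted p under 0.05 there were 9 higher and 2 lower. Flg2, which encodes filaggrin-2, differed by -0.79 ± 0.19 (adjusted p = 0.084; -0.46 within slide 1). Among 15 proteases and inhibitors that process envelope proteins or transglutaminases, 0 passed and the median was 0.19, or -0.05 within slide 1, with 1 higher and 0 lower at an unadjusted p under 0.05. Ctsd, the gene of cathepsin D, differed by 0.50 ± 0.16 (adjusted p = 0.13; 0.27 within slide 1) and Cst6, a cystatin that restrains cathepsins upstream of transglutaminase 3, by 0.30 ± 0.13 (adjusted p = 0.20; 0.22 within slide 1). Of 19 transcriptional and signalling regulators of the barrier 0 passed, with a median of -0.19 (-0.07 within slide 1) and 3 higher and 0 lower at an unadjusted p under 0.05. Notch1 differed by 1.72 ± 0.55 (adjusted p = 0.13; 1.11 within slide 1) and Ovol1, a zinc finger gene, by 0.58 ± 0.20 (adjusted p = 0.14; 0.21 within slide 1).

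Markers of the granular layer, where Lor, Casp14 and Tgm1 are switched on, had a median of 0.03 (-0.04 within slide 1), and 0 of 16 passed in limma, with 1 higher and 2 lower at an unadjusted p under 0.05. Sdr9c7, an enzyme of envelope lipids, differed by -0.77 ± 0.24 (adjusted p = 0.12; -0.40 within slide 1) and Krt2 by 0.47 ± 0.16 (adjusted p = 0.14; 0.25 within slide 1). Basal keratinocyte markers had a median of -0.00075 (0.09 within slide 1), and 0 of 11 passed, with 2 higher and 1 lower at an unadjusted p under 0.05. Krt5 differed by 0.53 ± 0.15 (adjusted p = 0.11; 0.33 within slide 1) and Krt14 by 0.49 ± 0.14 (adjusted p = 0.11; 0.38 within slide 1). Summed levels were higher on every KO array than on every WT array for both lists. They were 428 to 492 in KO and 364 to 418 in WT for the granular markers. For the basal markers they were 344 to 373 in KO and 274 to 314 in WT. The brightest markers weigh most in these sums, led on KO arrays by Krt2 (mean level 6.82) and Krt5 (6.90).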

How the data were processed

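Per the file headers, the Agilent arrays were read with Feature Extraction 10.7.3.1, and the deposited processed signal is an intensity in 1 colour, with background handled by that software. Probe positions are those of the files (mm9); exon and UTR annotation of the probes was not used here. Spots marked as outliers were left out, log2 of the signal minus log2 of the array's 75th percentile was taken with no pseudocount, and a probe was kept if well above background on 3 or more of 6 arrays. A gene was read by its brightest kept probe. KO and WT were compared with limma 3.58.1 (R 4.3.3) without covariates, with Benjamini-Hochberg adjustment over 23675 genes. Tables and figures used Python 3.11.15, pandas 2.3.3, numpy 2.4.6 and matplotlib 3.10.9.

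Gene names came from the files, updated through RefSeq (GRCm38.p6). The number of arrays limits the precision. On simulated data of this comparison with 23675 genes, 200 of them changed, 31% of 2-fold and 81% of 4-fold changes were recovered with 7 false calls. The simulated noise was independent and held no slide effect, so these figures do not give the error rate of the real comparison.

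All 10 genes were named. A pathway list gave up to 4 genes that passed or, if it held fewer than 2 of these, its 2 genes of lowest p, besides any that passed where 5 or fewer did; a marker list gave its 2 genes of lowest p; and for the genes that passed among the 10, the 3 most alike in profile. Members and lists were chosen with earlier results of these data known. Mice sharing a number deviated together by correlations of 0.083 (KO 1 and WT 1, both on slide 1) and 0.054 (KO 2 and WT 2). No reference was set for these values, so they cannot show whether the mice were paired. The main comparison was unpaired.

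Macrophage, melanocyte, sebaceous, adipocyte and cartilage marker lists were also computed. Their median differences were -0.17, 0.70, -0.16, -0.86 and -0.42 in that order, against 0.045 over all genes. Within slide 1 they were -0.35, -0.01, -0.17, -0.40 and -0.34, against -0.012 over all genes. All 10 adipocyte and 8 of 12 cartilage markers were lower in KO. The share of all genes at an unadjusted p under 0.05 in either direction was 26.6%. Of 12, 7, 10, 10 and 12 measured markers, 1 rose, the sebaceous gene Elovl3 (1.55 ± 0.17, adjusted p = 0.0086; 1.29 within slide 1 and adjusted p = 0.10 with slide as a block), and 0 fell; at an unadjusted p under 0.05, 0 others were higher, and 3, 1, 2, 5 and 5 were lower in the order of the lists.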

Additional observations from a re-analysis of the deposited data

How the results depend on the processing

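No member fell under any alternative run. The 2 genes called higher became 1 with slide as a fixed block (Padi3), 5 with array weights (Tgm3, Padi4 and Casp14 added), and 1 to 3 when each mouse was left out. With a replicate block on the mouse numbers, which leaves 4 mice in pairs, 0 passed among the 10 genes or all genes (4497 of all genes at an unadjusted p under 0.05); Padi3 then differed by 4.90 (adjusted p = 0.079) and Padi1 by 1.36 (adjusted p = 0.14). Padi1 ranged from 1.24 to 1.43 over the fits without 1 mouse, with adjusted p between 0.015 and 0.056.

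Over all genes, against 473 higher and 100 lower, the counts were 716 and 5923 with no scaling between arrays (an alternative chosen after seeing the data), 268 and 29 with no filter on dim probes, 158 and 9 with slide as a fixed block, 0 and 0 with the replicate block, 4345 and 3083 with array weights, and 1552 and 500 at adjusted p under 0.10. Normexp background gave 884 higher. Leaving out each mouse gave 184 to 717 higher, lowest without WT 2 and highest without KO 1, and 19 to 259 lower. The Tgm3 minus Tgm1 shift, read by the brighter Tgm3 probe, ran between -0.026 (without KO 2) and 0.50 (without WT 1) when each mouse was left out. The Ivl minus Lor shift was 0.0099 after quantile normalization, which leaves little room for a difference in a probe as bright as that of Lor. The cause of these changes was not tested.

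Limits of signal touched the second Padi4 probe most, the dimmest of the 14. The 3 mice a group, and slide 2 without WT arrays, limit each comparison.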
